A study of Mus musculus with 6 samples.

Results

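The genes described here are 10 surface proteins used to place B-lineage cells along their path of development: Ly6d, Cd24a, Cd93, Cd2, Ms4a1, Cd37, Cd38, Cd69, Cd83 and Cd86. They were chosen by name, with earlier results of these data already known, so counts among them describe and do not test. A gene was measured through its brightest probe among those annotated to that gene alone, and 9 of the 10 had such a probe, out of 19938 genes in all. Each of these 9 had a single such probe. Cd38 was not analysed here.

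The arrays held RNA of pre-B cells transformed by BCR-ABL1, a constitutively active fusion kinase that drives acute lymphoblastic leukemia, from Balb/c mice aged 4 weeks. All 6 samples carry the label Blnk KO, so cells without the gene are the starting point of both groups. Blnk, also called Slp65, is an adaptor on which the enzymes activated by the pre-B cell receptor assemble. The cells were transduced with Blnk in 3 samples, and with pMIG, an empty retroviral vector with a GFP marker, in the other 3 samples. Cells positive for GFP were collected by sorting on day 5. Whether replicate samples stem from different mice, cultures or clones is left unsaid in the labels, so the spread behind each p-value may be purely technical.

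B-cell precursors change their surface in a known sequence. Commitment brings Ly6d, a small protein held in the membrane by a lipid anchor. Cd24a, the heat-stable antigen, and Cd93, a C-type lectin-like receptor also known as AA4.1, are high on precursors and are lost or reduced on mature cells. Cd2, an adhesion receptor, appears in mouse B cells around the pre-B stage. Ms4a1, which encodes the antigen CD20, and Cd37, a tetraspanin, are displayed by later B cells. Cd69, a C-type lectin, Cd83, an immunoglobulin-family protein, and Cd86, a ligand of the costimulatory receptor CD28, are gained when B cells are activated. The results follow that order.

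Transcripts of Ly6d, Ms4a1 and Cd2 were higher in Blnk cells, and none of the other 6 measured markers passed the test. Ly6d rose most (4.83-fold), followed by Ms4a1 (2.87-fold) and Cd2 (1.66-fold). Thus 3 of 9 markers were called higher by limma, against 2.51% of all genes, and 0 of 9 were called lower, against 1.10% of all genes. At an unadjusted p under 0.05 the counts were 4 higher, against 8.91% of all genes, and 0 lower, against 6.32% of all genes. For every list below, 2.51% higher and 1.10% lower are the background of the calls, and 8.91% and 6.32% that of the unadjusted counts. Values are array intensities, and a call means a Benjamini-Hochberg adjusted p under 0.05 over all 19938 genes. Differences are of mean log2 intensity, Blnk minus pMIG, with the standard error (SE) of limma. The median difference was 0.17 over the 9 markers and 0.00 over all genes tested. The 3 called markers were bright, and a larger share of genes was called in a fit limited to brighter genes. With genes below the 40th percentile of level left out, 807 of 11963 genes and 3 of 7 markers were called higher. That fit has its own variance prior and adjustment, so its share is not that of brighter genes in the main fit. In bulk RNA, a larger share of cells with a transcript and more of it per cell cannot be told apart.

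**Figure D1:**
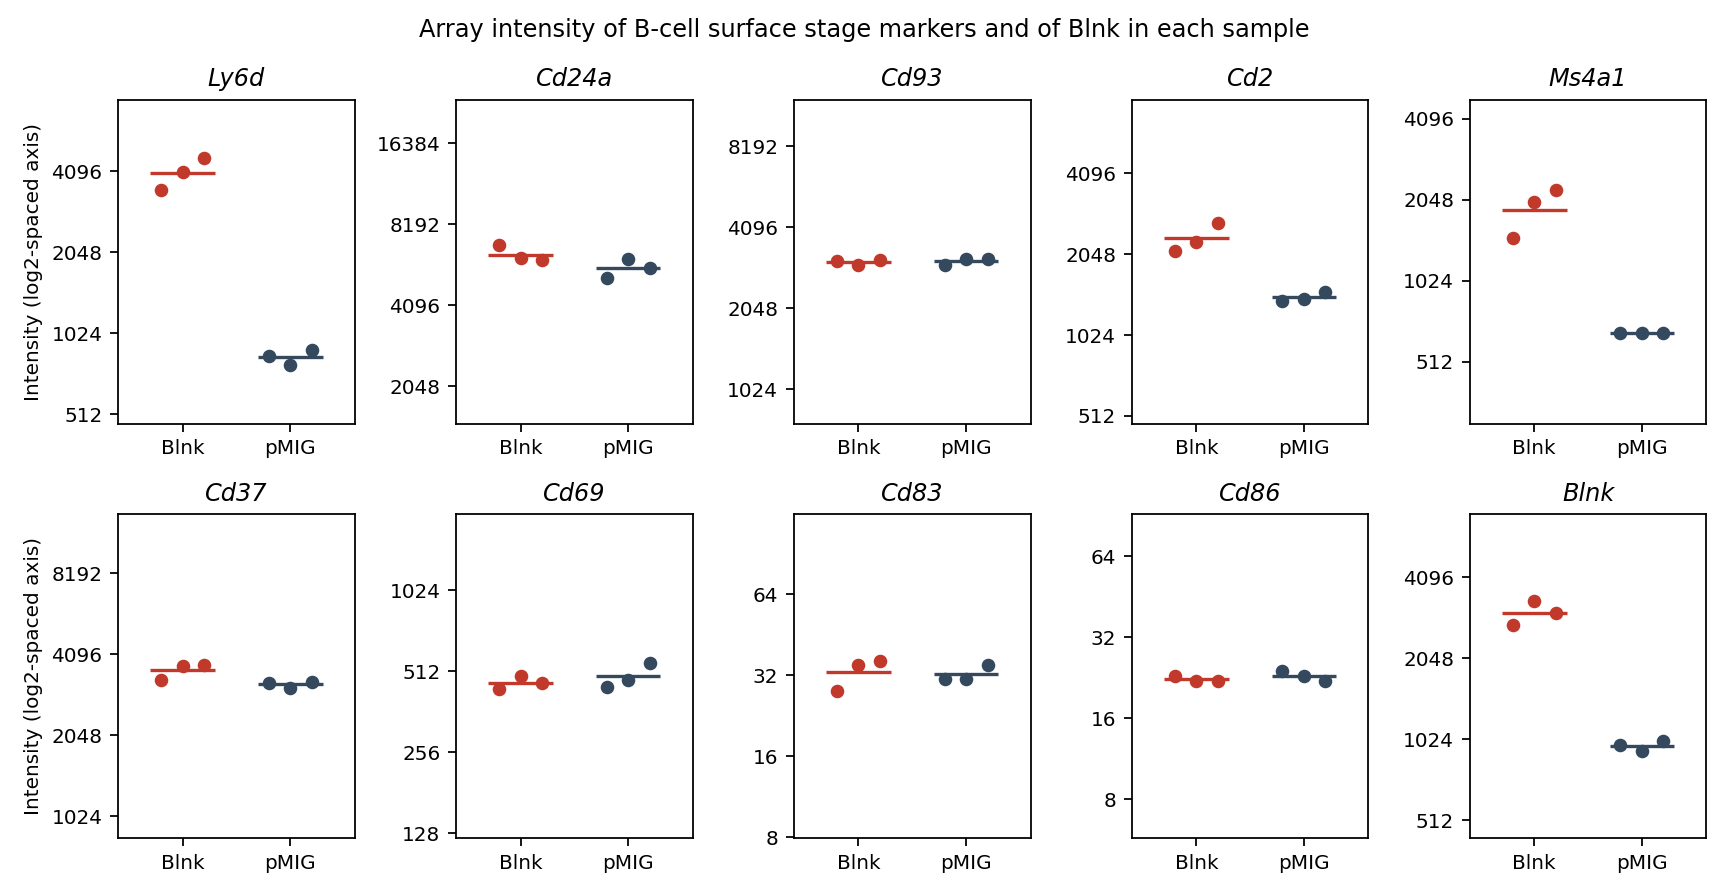
Intensity of the 9 measured surface stage markers and of Blnk on each array, on a log2-spaced axis that spans the same fold range in every panel. Points are single arrays, with Blnk samples in red and pMIG samples in dark blue and replicates 1 to 3 placed left to right, and bars are means on the log2 scale. The red and blue points are far apart for Ly6d, Ms4a1, Cd2 and Blnk, lie next to each other without overlap for Cd37, and overlap for Cd24a, Cd93, Cd69, Cd83 and Cd86.

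Across the arrays, the median intensity of all probes was 69.0 to 70.0 in the Blnk samples and 67.0 to 69.0 in the pMIG samples. Blnk itself had intensities of 2714, 3342 and 3022 in Blnk samples and 972, 926 and 1013 in pMIG samples (log2 difference 1.64, SE 0.0914). Every Blnk sample lay above every pMIG sample, and the pMIG samples also gave a bright signal. The region of the transcript that this probe covers was not known here, so the pMIG level is no check of the genotype. Of 11 measured genes that mark pre-B identity, 3 were called higher and 1 lower, with a median of -0.03 (unadjusted p under 0.05 in 4 higher and 4 lower). Among those called higher was Blnk itself, the transduced gene, whose rise is no result about identity. The others called higher were Il2ra (2.09) and Cd79a, a receptor chain (0.31). The call of Cd79a was lost when any 1 array was omitted (limma adjusted p from 0.0678 to 0.151) and under both rescalings of the arrays (0.0599 and 0.102). Vpreb1, which pairs with Igll1 in the surrogate light chain, fell by 0.68, and its call was lost when pMIG 2 (0.0502) or pMIG 3 (0.0688) was omitted. Igll1 did not pass and was bright at 9221 ± 222 in Blnk and 10485 ± 350 in pMIG samples (SD, n = 3 each). Pax5, the B-lineage factor, did not pass either and stood at 2975 ± 171 and 3084 ± 63.7 (SD, n = 3 each), in the same order of groups. The recombinase genes Rag1 and Rag2 lay below the array medians. In all, 500 genes were called higher and 220 lower, a balance of 69.4% higher. It was 411 and 327 (55.7%) after repeated quantile normalization and 417 and 291 (58.9%) with arrays centred on their medians.

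Among the early markers, Ly6d moved by itself. Its intensity was 3503, 4085 and 4576 in the Blnk samples, against 840, 781 and 884 in the pMIG samples. The lowest Blnk sample was several times brighter than the highest pMIG sample. The log2 difference was 2.27 (SE 0.108, 95% interval 2.02 to 2.52; limma adjusted p = 6.14e-05), and 11 of the 19938 genes rose further. Differences of 2.18 to 2.37 were found with any 1 array left out.

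Cd24a, a heavily glycosylated protein with a lipid anchor, was bright in every sample. It had 6837, 6115 and 6005 in Blnk samples and 5159, 6061 and 5628 in pMIG samples. The ranges overlapped by a narrow margin, since the dimmest Blnk sample lay just under the brightest pMIG sample. The log2 difference of 0.17 did not pass (SE 0.0885, interval -0.03 to 0.38; limma adjusted p = 0.432). A rise of more than 0.38 therefore lies outside its interval.

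Cd93 was the steadiest of the bright markers. Its intensity was 3057, 2977 and 3100 in Blnk samples and 2976, 3117 and 3129 in pMIG samples. Both groups covered the same range. The log2 difference was -0.01 (SE 0.0645, interval -0.16 to 0.14; limma adjusted p = 0.955), so the interval leaves room only for a small change in either direction.

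Of the markers gained from the pre-B stage onwards, Cd2 and Ms4a1 rose and Cd37 did not pass. Cd2 had 2108, 2278 and 2680 in Blnk samples, against 1373, 1396 and 1477 in pMIG samples. All Blnk samples lay above all pMIG samples, with the pMIG values close together. The log2 difference was 0.73 (SE 0.0982, interval 0.50 to 0.96; limma adjusted p = 0.00718). It passed with any 1 array left out, with adjusted p from 0.0175 to 0.0491. It did not pass when the test asked for a change of more than 1.5-fold (adjusted p = 1), which Ly6d and Ms4a1 did.

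Ms4a1 had 1477, 2013 and 2230 in Blnk samples, against 657, 653 and 654 in pMIG samples. The pMIG samples were nearly identical and the Blnk samples spread widely, with standard deviations of 0.31 and 0.0046 on the log2 scale. The lowest Blnk sample was still more than double the pMIG level. The log2 difference was 1.52 (SE 0.142, interval 1.19 to 1.85; limma adjusted p = 0.00115), with values of 1.40 to 1.69 when any 1 array was left out.

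Cd37 had 3304, 3721 and 3756 in Blnk samples, against 3206, 3082 and 3226 in pMIG samples. The groups did not overlap, but Blnk 1 lay much nearer to the pMIG samples than to the other Blnk samples. The log2 difference of 0.18 did not pass after adjustment (SE 0.0760, interval 0.0018 to 0.35; unadjusted p = 0.0483, limma adjusted p = 0.322). With Cd37 included, the Blnk samples lay above all pMIG samples for 4 of 9 markers, against 11.8% of all genes, and below them for 0 of 9, against 8.15% of all genes.

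The activation-associated markers stayed within their spread. Cd69 had 438, 490 and 461 in Blnk samples and 447, 476 and 549 in pMIG samples. The Blnk values lay inside the pMIG range except for Blnk 1, which was slightly below it. The log2 difference was -0.08 (SE 0.0941, interval -0.30 to 0.14; limma adjusted p = 0.773), and it stood at 0.0039 without pMIG 3, the brightest sample. Cd83 and Cd86 were dimmer than the median probe on every array. Cd83 had 28, 35 and 36 in Blnk samples and 31, 31 and 35 in pMIG samples. Cd86 had 23, 22 and 22 in Blnk samples and 24, 23 and 22 in pMIG samples. At such levels the rounding of the values to whole numbers is a visible step, and the groups cannot be separated. The log2 differences were 0.02 (interval -0.23 to 0.28; limma adjusted p = 0.957) for Cd83 and -0.04 (interval -0.20 to 0.12; limma adjusted p = 0.846) for Cd86. None of these 3 markers had an unadjusted p under 0.05.

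**Figure D2:**
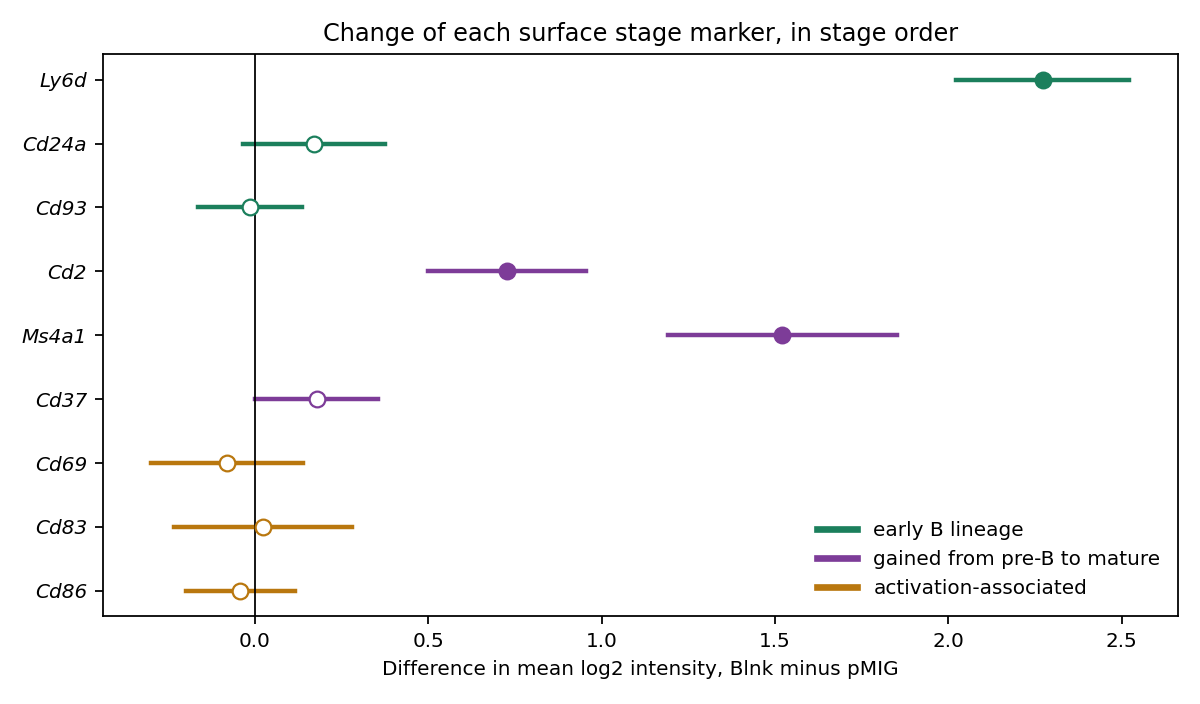
Difference in mean log2 intensity, Blnk minus pMIG, of the 9 measured markers from early (top) to activation-associated (bottom), with 95% intervals of limma from 3 arrays per group. Filled points passed an adjusted p under 0.05 and open points did not. The filled points are Ly6d (2.27), Cd2 (0.73) and Ms4a1 (1.52), and the 3 activation-associated markers lie around 0.

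Read in stage order, the differences followed no single direction from early to late. The early group held the largest rise, that of Ly6d, beside 2 markers that did not pass, with a median of 0.17. Ly6d was placed there by its first appearance at commitment, which does not say how its level changes later. The group gained from pre-B to mature cells had a median of 0.73, with 2 of 3 called higher. The activation-associated group had a median of -0.04. The group medians under repeated quantile normalization were 0.14, 0.67 and -0.05 in the same order, and the same 3 genes were called.

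**Figure D3:**
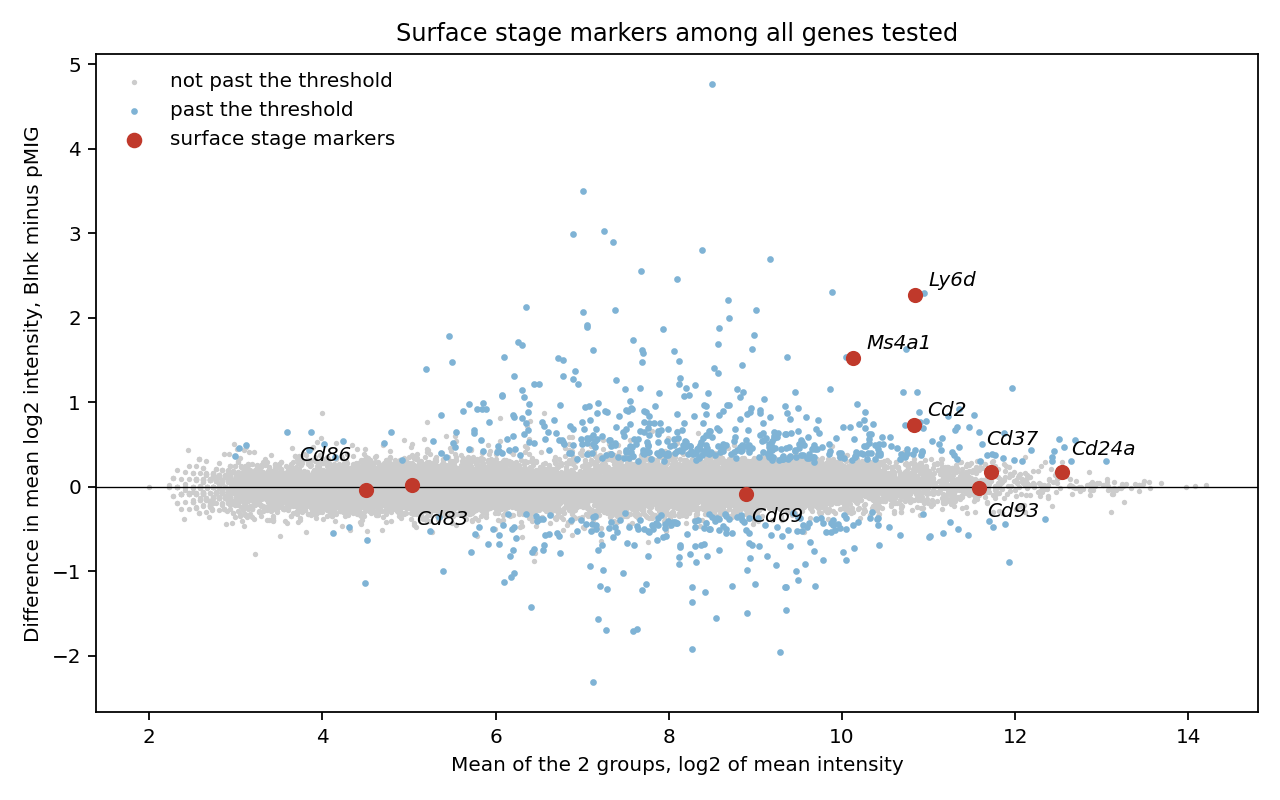
Difference in mean log2 intensity, Blnk minus pMIG, of all 19938 genes against their level, the mean over the groups of log2 mean intensity. Grey points did not pass, blue points passed and red points are the 9 surface stage markers. Ly6d and Ms4a1 stand at the upper edge of the genes of their level, Cd2 lies among the other genes that passed, and the remaining 6 markers lie in the grey band.

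The Blnk samples were not equal in these genes. Blnk 1 was the lowest and Blnk 3 the highest of the Blnk samples for Ly6d, Cd2, Ms4a1 and Cd37. For Cd24a the positions were turned round. Among the 500 genes called higher, Blnk 1 was the lowest Blnk sample in 58.6% and Blnk 3 the highest in 47.6%, and both held together with Blnk 2 between them in 35.2%. The pattern of the markers is thus common among genes that rose. The transcript of Blnk itself was lowest in Blnk 1 and highest in Blnk 2.

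Genes with the most similar pattern were found by the root mean squared difference between centred log2 profiles over the 6 arrays. For Ly6d these were Pim2, a survival kinase (0.0418), Cfp, properdin of the complement system (0.0691), and Ifi30, a lysosomal reductase (0.0749). For Ms4a1 they were Gpr18, a G protein-coupled receptor (0.0794), Niban3 (0.0953) and Hpse, heparanase (0.109). For Cd2 they were Pim1, the relative of Pim2 (0.0422), Ctsb, a lysosomal protease (0.0467), and Cd82, a tetraspanin (0.0513). With 6 arrays in 2 groups, such likeness mostly reflects a similar size of difference between the groups.

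Other surface markers of B-cell stages were set beside these genes. Of 10 measured markers of progenitors and pro-B cells, 0 were called higher and 1 lower, with a median of -0.04 (unadjusted p under 0.05 in 0 higher and 2 lower). The one that fell was Enpep, the aminopeptidase known as BP-1 that marks late pro-B and early pre-B cells, at 2862 ± 297 in Blnk and 5302 ± 150 in pMIG samples (SD, n = 3 each; log2 difference -0.89, limma adjusted p = 0.00153). Among those that did not pass, Il7r was bright, with means of 3501 in Blnk and 3678 in pMIG samples. Kit, Flt3 and Cd34 did not pass either, but lay below the array medians in both groups, where a change is hard to detect. Enpep was called lower with any 1 array left out.

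Of 12 measured pan-B markers, 6 were called higher and 0 lower, against 2.51% and 1.10% of all genes. Pan-B here means carried through the B lineage, and the list was not limited to genes confined to B cells. The list median was 0.33 (unadjusted p under 0.05 in 10 higher and 0 lower). These genes were bright, with 0 of the 12 below the 40th percentile of level. With genes below it left out and the fit repeated, 9 of the 12 were called higher, against 807 of 11963 genes. Those with the smallest adjusted p were Cd52, a small lipid-anchored glycoprotein (0.92), Cd82 (0.79), Cd72, an inhibitory coreceptor (0.63), and Fcgr2b, the inhibitory Fc receptor (0.51). The count was 3 without Blnk 2 or pMIG 3, and 4 without any other single array or with arrays centred on their medians. Fcgr2b did not pass without Blnk 2 (0.0505) or pMIG 3 (0.0529).

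Of 15 measured markers of immature, transitional and mature B cells, 6 were called higher and 0 lower, against 2.51% and 1.10% of all genes. The list median was 0.23 (unadjusted p under 0.05 in 7 higher and 0 lower). The strongest were Fcmr, the Fc receptor for IgM (4.77), Cd40, a costimulatory receptor (1.27), Cxcr5, a chemokine receptor of follicles (0.90), and Cd55, a complement regulator (1.31). Fcer2a and Cr2, which mark mature follicular and marginal zone cells, did not pass (0.23, limma adjusted p = 0.481, and -0.15, limma adjusted p = 0.532). Fcer2a was dim, with means of 24.3 in Blnk and 20.7 in pMIG samples, below the array medians. At that level a change is hard to detect. Of 14 activation markers outside the 3 described above, 2 were called higher and 0 lower, with a median of 0.03 (unadjusted p under 0.05 in 3 higher and 0 lower). Il2ra, which is also the marker CD25 of small pre-B cells, rose by 2.09. Slamf1 rose by 0.68 (limma adjusted p = 0.0471), but the call was lost whichever array was left out, with adjusted p from 0.0559 to 0.206.

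Relatives of the markers that rose mostly did not pass, but many were dim. Of the Ly6 relatives, 10 of 19 lay below the 40th percentile of level, and of the Ms4a relatives 10 of 15. At such levels a change is hard to detect. Of 19 measured genes of the Ly6 family other than Ly6d, 2 were called higher and 0 lower, with a median of 0.00 (unadjusted p under 0.05 in 3 higher and 2 lower). Ly6e, a bright member, had 8015 ± 470 in Blnk and 5472 ± 143 in pMIG samples (SD, n = 3 each; 0.55), and Lynx1, a modulator of nicotinic receptors, rose by 0.77. Of 15 relatives of Ms4a1, Ms4a4c was called higher, with 101, 128 and 121 in Blnk and 36, 42 and 42 in pMIG samples (log2 difference 1.54), and 0 were called lower (unadjusted p under 0.05 in 3 higher and 0 lower). A probe can also read transcripts of close relatives, which makes members of such families less certain than other genes.

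Of 9 relatives of Cd2 in the SLAM family, Cd48 (0.37) and Slamf1 (0.68) were called higher and 0 were called lower, and neither was called with any 1 array left out (unadjusted p under 0.05 in 5 higher and 0 lower). Cd48 also did not pass with arrays centred on their medians (0.0627). The lists share genes, so their calls are not separate results. Cd48, and Cd82 among the tetraspanins below, were also counted in the pan-B list, and Slamf1 in the activation list. Cd79a was counted in both the pre-B identity and the pan-B list. Of 18 tetraspanins other than Cd37, 3 were called higher and 0 lower (unadjusted p under 0.05 in 4 higher and 1 lower). These were Tspan2 (1.53), Cd82 (0.79) and Tspan14 (0.49), the last of which was called without Blnk 1 but not without any other single array (0.0684 to 0.140) and not after repeated quantile normalization (0.0515). Cd86 belongs to the B7 family, of which 0 of 7 other members were called in either direction by limma, also at an unadjusted p under 0.05. Of the 3 measured relatives of Cd93, Clec14a, Thbd and Cd248, 0 were called (unadjusted p under 0.05 in 0 higher and 1 lower). Of 10 lectin genes related to Cd69 and its neighbours, 0 were called (unadjusted p under 0.05 in 2 higher and 0 lower).

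**Figure D4:**
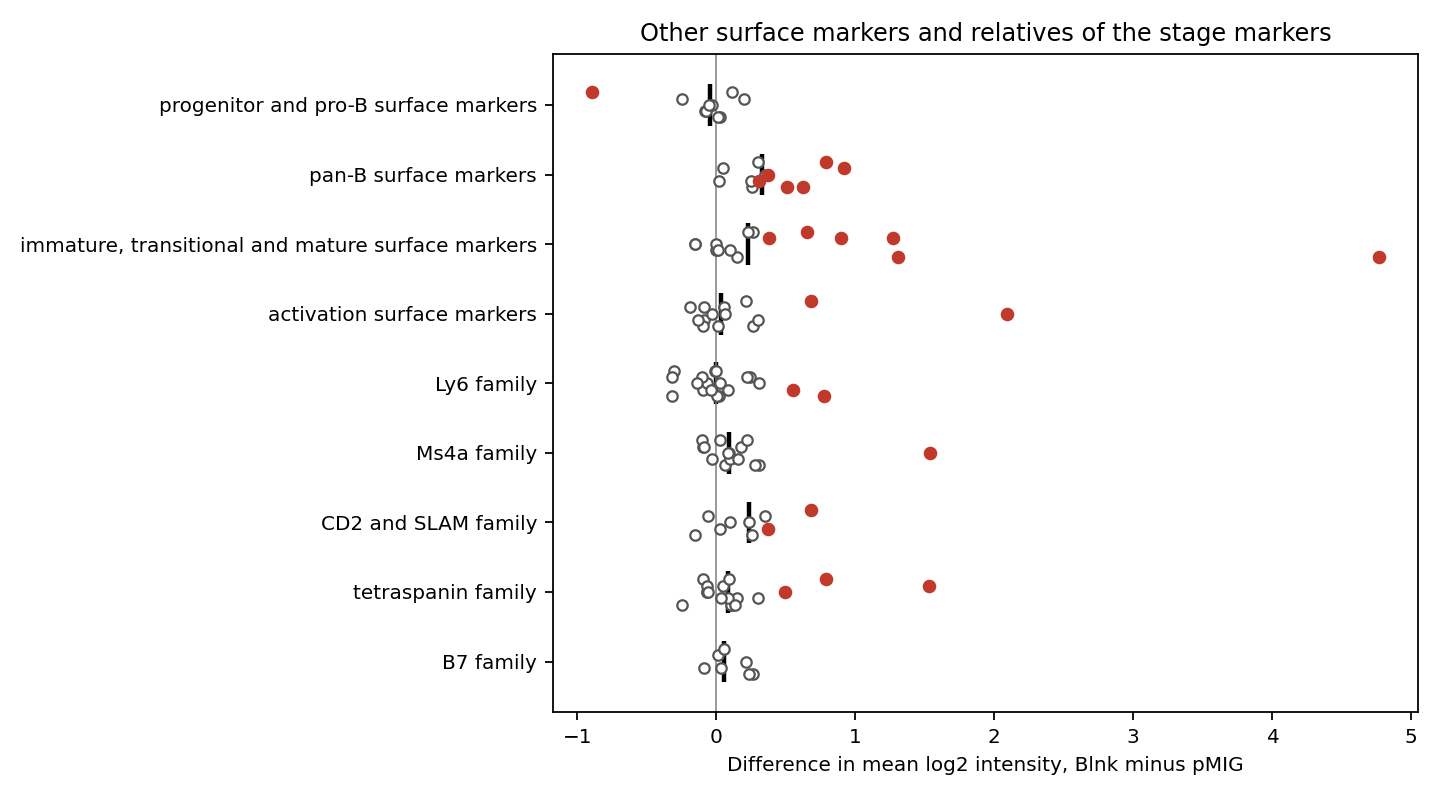
Difference in mean log2 intensity, Blnk minus pMIG, of each measured gene in 9 lists of other surface markers and of relatives of the stage markers. Filled red points passed an adjusted p under 0.05, open points did not, and black bars are list medians. Filled points lie right of 0 in all lists with any, except Enpep at -0.89 in the progenitor list.

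Several of these markers are shared with other cells: Cd2 and Cd69 with T and NK cells, Cd83, Cd86 and Cd93 with myeloid or dendritic cells, Cd24a with erythroid cells and Cd93 with endothelium. Of 11 measured T and NK markers 0 were called (unadjusted p under 0.05 in 0 higher and 1 lower), and their summed intensity was 564 to 630 in Blnk and 579 to 658 in pMIG samples. Cd3d, Cd3e, Cd3g and Cd4 stood at group means of 81.3 or less. The brightest were Cd8a, at 191 ± 60.8 in Blnk and 170 ± 18.7 in pMIG samples, and Cd28, at 126 ± 23.2 in Blnk and 175 ± 2.08 in pMIG samples (SD, n = 3 each). Cd28 (-0.49, limma adjusted p = 0.0852) was called lower without Blnk 3 (0.0126), with arrays centred on their medians, without dim genes, with 16 added and with the trended robust prior.

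Of 17 myeloid and dendritic markers, 1 was called higher and 0 lower (unadjusted p under 0.05 in 2 higher and 0 lower), and their summed intensity was 747 to 829 in Blnk and 669 to 689 in pMIG samples. The one was Siglech, a receptor of plasmacytoid dendritic cells, at 118 ± 18.6 in Blnk and 53.0 ± 5.57 in pMIG samples (SD, n = 3 each; 1.14). The brightest was Cd68, at 143 ± 28.3 in Blnk and 93.7 ± 11.0 in pMIG samples (SD, n = 3 each), which did not pass. The defining genes Itgam, Itgax, Lyz2, Clec9a and Xcr1 lay below the array medians in both groups. The part of this shift in the rise of Ly6d, Ms4a1 and Cd2 was not tested.

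Of 7 erythroid and megakaryocyte markers 0 were called in either direction, also at an unadjusted p under 0.05, with sums of 3756 to 4052 in Blnk and 4192 to 4202 in pMIG samples. Most of that sum was Tfrc, the transferrin receptor of dividing cells, at 3575 ± 170 in Blnk and 3904 ± 23.1 in pMIG samples (SD, n = 3 each), and the next brightest, Itga2b, had 75.3 ± 3.21 and 73.7 ± 15.0. Of 12 stromal and endothelial markers, Pecam1, which B cells also carry, rose by 0.64 and 0 fell (unadjusted p under 0.05 in 2 higher and 0 lower), and the sums were 1241 to 1358 in Blnk and 1009 to 1089 in pMIG samples. The next brightest was Col1a1, at 117 ± 11.0 in Blnk and 128 ± 19.4 in pMIG samples (SD, n = 3 each).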

How the data were processed

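RNA of 6 samples, 3 Blnk and 3 pMIG by the titles in the labels, was measured on 1 Affymetrix array each. The authors deposited linear intensities, as whole numbers from 3 to 22187. The submitters' processing notes name RMA, with no version. Since RMA yields log2 values, these were probably converted back and rounded, which is read from the values alone. From these, log2 was taken with nothing added. Of 35421 probes, 21789 had 1 gene symbol in the platform annotation, 1621 had several and 12011 were not listed. Symbols of lists were matched through Entrez identifiers to a GRCm38.p6 gene table, used for names only, and 199 of 214 list entries were measured.

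The comparison used limma 3.58.1 (lmFit, eBayes) under R 4.3.3, with group as the only term, no filter and two-sided tests, which were tested on simulated data. The fit covered all 19938 genes. The number of arrays limits the precision, and rounding is coarse below an intensity of 16, where each array had 13.7% to 14.1% of its probes. Named genes were all measured markers, Blnk, up to 4 genes of each list that passed, the brightest 2 and any called markers of other cells, and 3 genes most like each marker that passed. Genes named as not passing, and others of the cell-type lists, were added after their values were seen. The members, lists and alternatives were chosen with earlier results of these data known. The replicate numbers were checked for pairing. Alternatives were a replicate block, quantile normalization, median centring, a filter on dim genes, a pseudocount of 16, other variance priors, array weights, the mean of all probes, single probes, a fold minimum of 1.5 and each array left out.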

Additional observations from a re-analysis of the deposited data

How the results depend on the processing

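Ly6d and Ms4a1 were called higher under all 10 alternatives and with any 1 array left out. Cd2 was called in all of these except the test for a change above 1.5-fold, where its difference of 0.73 had an adjusted p of 1. No marker was called lower under any of them. Each measured marker had a single probe, so the mean of all probes left its values unchanged and is no separate check. The fit of single probes used the same values, with only the variance prior and the adjustment changed. Markers near 0 changed sign without being called. Cd83 stood at -0.0053 after quantile normalization, -0.0122 with centred arrays and -0.0012 with array weights, and between -0.0442 and 0.137 with 1 array left out. With 1 array left out, Cd93 lay between -0.0368 and 0.0024 (above 0 without Blnk 2) and Cd69 between -0.144 and 0.0039 (above 0 without pMIG 3). Cd83 and Cd86 were removed by the filter on dim genes and so have no value there.

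The count over all genes, 720, moved more. It was 1228 without dim genes, 1100 with 16 added, 1539 with the trended robust prior, 86 with the fold minimum, and 267 to 437 with 1 array left out, where fewer arrays weaken the test by construction. With the replicate block it was 289, and the same 3 markers were called. Of the other genes named, Fcgr2b (0.0519), Ly6e (0.0519), Cd48 (0.136), Tspan14 (0.0762) and Cd79a (0.176) were not called with it. The pan-B count of 6 was 3 with the replicate block, 10 with the trended robust prior and 0 with the fold minimum, and the count of 6 mature markers was 2 with the fold minimum. The deviations of samples with the same number correlated at -0.19, 0.06 and -0.12, and no sample correlated best with its own number. These values gave no sign of pairing, but with 3 arrays per group they cannot exclude it. Signal limits what can be said of Cd83 and Cd86, which lay below the array medians.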
